A study of Mus musculus with 16 samples.

Results

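Hippocampal RNA of 16 mice was described by a table of 80137 transcripts at 19493 loci, and 2041 of these loci, with 3152 transcripts, were assembled from the reads at places where the table lists no Ensembl transcript. These assembled loci were chosen by identifier alone. Each of their transcripts carries an identifier that the assembler StringTie gave (MSTRG, a locus number and a transcript number), and no transcript of the same locus carries an Ensembl identifier. No expression value entered the choice, but a model exists only where the reads of some library gave it. Another 15765 assembled transcripts were left out because they lie at loci with an Ensembl transcript. The table gives all 3152 transcripts the same class, for transcripts that match no annotation, and none has a gene name.

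The mice were male, wild type C57BL/6 mice aged 3 months, with both hippocampi of a mouse pooled into 1 library and 4 mice in each of 4 groups. Homecage (HC) mice stayed in their cages, with no handling, no shocks and no test. Control (Ctrl) mice were put into the shuttle box on the day before without inescapable shocks, and were then given 30 escape trials. Mice of the last 2 groups, NLH (non-learned helpless) and LH (learned helpless), were given 180 inescapable shocks and then the same 30 escape trials, and were told apart by how they escaped in those trials. The comparisons ask which transcripts differ with handling, the shuttle box and the test together (Ctrl vs. HC), with inescapable shocks in mice that still escaped (NLH vs. Ctrl) and with helplessness (LH vs. Ctrl, LH vs. NLH). The LH and NLH groups were formed by behavior after the same inescapable shocks, so treatment and susceptibility cannot be told apart in LH vs. Ctrl. Each test shock ended on escape, so LH mice, which failed more often than NLH and Ctrl mice, got more shock in the test. In both LH comparisons this cannot be told apart from helplessness.

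Transcript assembly joins overlapping and spliced reads into transcript models and merges the models over all libraries. A model that meets no annotated gene can be a long noncoding RNA that the annotation lacks, a far exon or alternative end of a neighboring gene, RNA transcribed at an enhancer, or RNA from repeats and pseudogenes. Unannotated loci of this kind are known to be weakly expressed as a class and to be restricted to fewer tissues than protein-coding genes. Their level is given here in FPKM, which divides the fragments found for a transcript by how long it is and by how deeply its library was sequenced, so that levels of different loci can be compared per length. The level of a locus is the sum of the FPKM of its transcripts. The table gives no position and no sequence for these transcripts, so none is printed.

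The locus numbers place most of the assembled loci among known genes. Of the Ensembl transcripts, 99.4% were found in the mouse GENCODE vM21 annotation (GRCm38, the mm10 build of the submitters' notes). The 16025 numbered loci that hold one of them run through the 19 autosomes in 19 unbroken stretches, and 99.1% of those with an annotated neighbor on both sides start between the starts of these neighbors. By this order, 1538 assembled loci (2012 transcripts) have a number that falls within the autosomes, which are called autosomal here. The remaining 503 loci (1140 transcripts), 24.6% of the 2041, have numbers above 75853, the last number with an Ensembl transcript, which lies on chromosome 9. They run up to number 78896 without an annotated locus among them, and are called loci numbered after chromosome 9. This division was made after the table had been seen. No Ensembl transcript of the table lies on chromosome X, Y or M, where the annotation has 7350 transcripts, and where the loci numbered after chromosome 9 lie was not tested.

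The autosomal loci were spread over all 19 autosomes and were mostly models of 1 transcript. Relative to 100 loci with an Ensembl transcript, there were between 5.59 of them on chromosome 11 and 17.7 on chromosome 16. Of the autosomal loci, 45.6% stood next to an annotated locus in number, and the starts of the nearest annotated loci on either side lay a median of 366919 bases apart. A single transcript made up 82.6% of the autosomal loci but 55.7% of the loci numbered after chromosome 9. Loci with 3 or more transcripts made up 5.85% of the autosomal loci and 27.2% of those numbered later, and the most transcripts at a locus were 16 and 28.

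**Figure D1:**
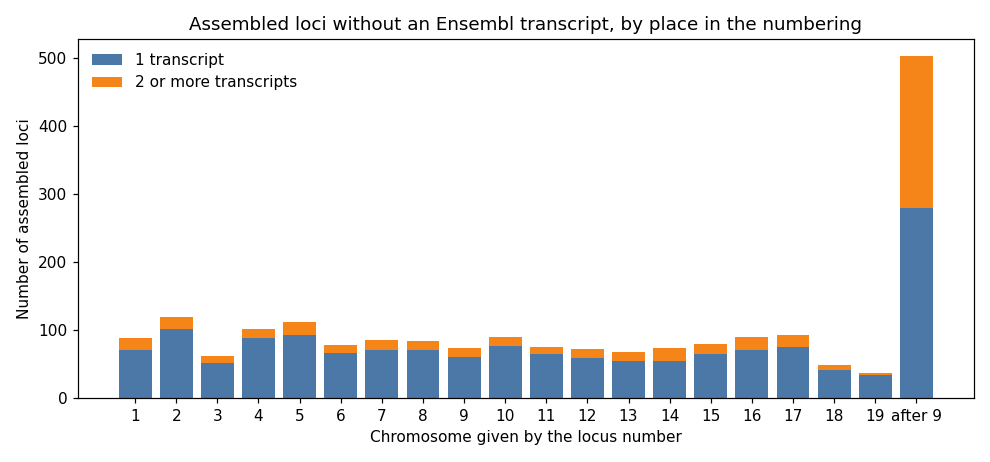
Number of assembled loci without an Ensembl transcript (vertical axis) by the chromosome that their number places them on, with 1 transcript in blue and with 2 or more in orange. The last bar holds the 503 loci numbered after chromosome 9, of which 280 have 1 transcript, and 12 loci whose number falls between chromosomes are not drawn.

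High levels were rare among the autosomal loci, and less rare among the loci numbered after chromosome 9. The mean level over the 16 mice had a median of 1.35 FPKM at the autosomal loci, 2.64 FPKM at the loci numbered after chromosome 9 and 2.10 FPKM at the 17452 annotated loci. The lower quartiles were 0.810, 1.33 and 0.258 FPKM in the same order, lowest at the annotated loci. Levels were more alike among autosomal loci than among annotated loci: 66.1% of the former and 42.0% of the latter were between 1 and 10 FPKM. A level of 10 FPKM or more was reached by 16 autosomal loci (1.04%), by 74 loci numbered after chromosome 9 (14.7%) and by 18.2% of the annotated loci. At least 0.1 FPKM in each of the 16 mice was found at 71.3% of the autosomal loci, 84.3% of those numbered later and 69.7% of the annotated loci. The table also lists values far below 1 fragment, and with any value above 0 counted these shares were 78.7%, 86.5% and 76.6%. Among loci of 1 to 10 FPKM, the SD of log2 levels within a group had a median of 0.12 in HC, 0.11 in Ctrl, 0.19 in NLH but 0.32 in LH over the assembled loci. For the annotated loci of this range the medians were 0.14, 0.14, 0.19 and 0.33 in the same order. In both kinds of locus the LH mice differed most from each other.

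**Figure D2:**
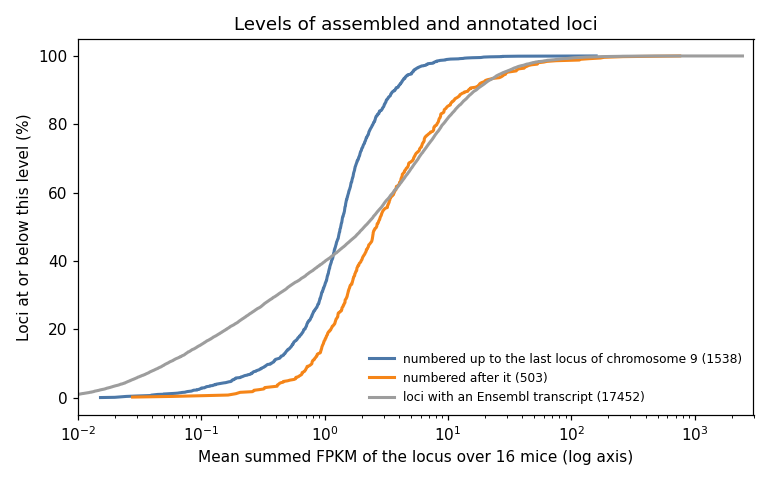
Share of loci (percent) at or below a given mean level over the 16 mice (FPKM, log axis) for autosomal assembled loci (blue), assembled loci numbered after chromosome 9 (orange) and loci with an Ensembl transcript (gray). The blue curve is the steepest, with a median of 1.35 FPKM, and the orange curve follows the gray one above its median.

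Of the 10 assembled loci with the highest mean level, 9 were numbered after chromosome 9. The highest, MSTRG.75857, is a model of 1 transcript whose number stands 4 after the last annotated locus, and it averaged 757 FPKM. Its level was 681 ± 80.7 FPKM in HC, 651 ± 85.7 in Ctrl, 859 ± 112 in NLH, with 836 ± 152 in LH (SD, n = 4 each). The NLH and LH values, 716 to 989 and 666 to 1036 FPKM, overlapped the Ctrl values of 571 to 760 FPKM. The next loci were MSTRG.78801 with a mean of 263 FPKM, MSTRG.76147 with 184 FPKM and MSTRG.77875, a locus of 8 transcripts, with 173 FPKM. The only autosomal locus among the 10 was MSTRG.42135, with 2 transcripts and a mean of 159 FPKM. By its number it lies on chromosome 2 between Cnbd2 (start 156312299) and Epb41l1 (start 156420909), which encodes a protein that ties the membrane to the cytoskeleton in neurons. MSTRG.42135 was at 154 ± 3.55 FPKM in HC, 154 ± 6.17 in Ctrl, 164 ± 13.4 in NLH, with 165 ± 31.3 in LH (SD, n = 4 each). Its LH 1 and LH 2 values, 186 and 195 FPKM, were its highest of all mice and its LH 4 value of 128 FPKM the lowest. The other 5, MSTRG.78788, MSTRG.76045, MSTRG.77672, MSTRG.77543 and MSTRG.76911, had means from 63.3 to 139.5 FPKM. None of these 10 loci passed an adjusted p of 0.05 in any of the 4 comparisons (limma, smallest adjusted p = 0.269).

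The loci with the most transcripts divided their FPKM unevenly. MSTRG.78464 has 28 transcripts, MSTRG.77833 has 21, and MSTRG.76745 and MSTRG.17672 have 16 each. At MSTRG.76745 one transcript held 79.7% of the locus, and only 2 of the 16 averaged 1 FPKM or more. At the other 3 the leading transcript held 18.9% to 25.4%, and 8 of 28 transcripts at MSTRG.78464, 10 of 21 at MSTRG.77833 and 6 of 16 at MSTRG.17672 averaged 1 FPKM or more. MSTRG.17672, the only autosomal locus of these, lies by number on chromosome 13 just before Inhba, which encodes the beta A subunit of inhibin and activin. Its summed level stayed between 14.0 and 17.3 FPKM in all 16 mice, with 16.4 ± 0.656 FPKM in HC and 14.9 ± 0.586 in LH (SD, n = 4 each).

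Together the assembled loci held a steady share of the FPKM in HC, Ctrl and NLH mice, and an uneven one in LH mice. The autosomal loci held 2.16% ± 0.0788 of a mouse's summed FPKM in HC, 2.11% ± 0.117 in Ctrl, 1.99% ± 0.164 in NLH, with 2.90% ± 1.80 in LH (SD, n = 4 each). In the LH group they held 1.63% in LH 1, 1.66% in LH 2, 2.83% in LH 3 and 5.46% in LH 4. The first 2 of these lie below the range of the 12 other mice (1.81% to 2.28%) and the last 2 above it. Without LH 4 the LH mean was 2.04% ± 0.685 (SD, n = 3). The loci numbered after chromosome 9 held 3.46% ± 0.0887 in HC, 3.37% ± 0.0584 in Ctrl, 3.50% ± 0.138 in NLH, with 3.68% ± 0.188 in LH (SD, n = 4 each). LH values for these loci, 3.43% to 3.88% with LH 4 highest, overlapped those of the other 12 mice, 3.31% to 3.65%.

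**Figure D3:**
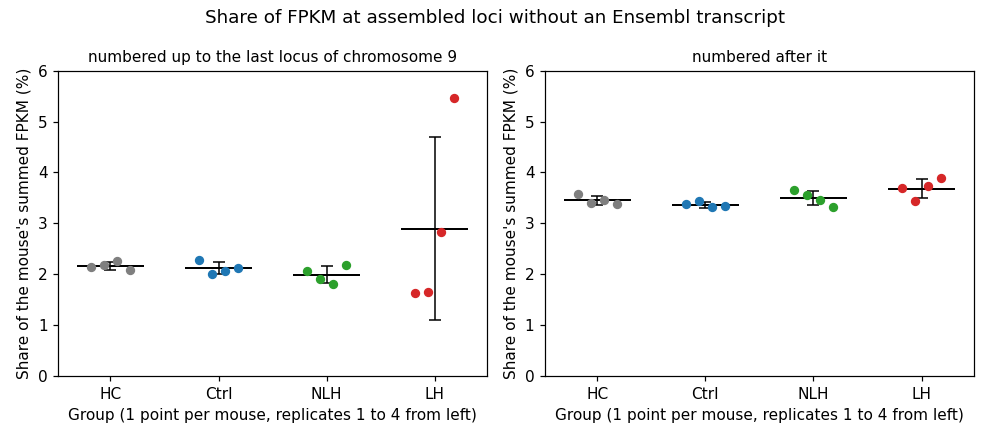
Share of a mouse's summed FPKM (percent) at autosomal assembled loci (left) and at assembled loci numbered after chromosome 9 (right), with 1 point per mouse in the order of its number, a line at the group mean and bars of 1 SD (n = 4). On the left LH 3 and LH 4 lie at 2.83% and 5.46%, above all other mice, while on the right all 16 mice lie between 3.31% and 3.88%.

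The typical autosomal locus and the typical annotated locus lay on opposite sides of the Ctrl mean in LH 1, LH 2 and LH 4, less far apart in NLH 2 and NLH 3, and also in HC 2, HC 3, Ctrl 1 and Ctrl 2, where all medians lay between -0.07 and 0.04. Relative to the Ctrl mean, the median log2 difference over autosomal loci was -0.19 in LH 1, -0.19 in LH 2, 0.00 in LH 3 and 0.19 in LH 4. Over annotated loci it was 0.15, 0.21, -0.08 and -0.25 in the same order. After division by median-ratio size factors, which bring the annotated medians of the 4 mice to between -0.07 and 0.01, the autosomal medians were -0.35, -0.39, 0.00 and 0.40. In HC, Ctrl and NLH mice the unscaled autosomal medians lay between -0.09 and 0.04 and the scaled ones between -0.21 and 0.08. Their lowest were those of NLH 2 and NLH 3, with -0.09 each before and -0.18 and -0.21 after scaling, where the unscaled annotated medians were 0.11 and 0.13. Loci numbered after chromosome 9 had medians of 0.28 in LH 1, 0.27 in LH 2, 0.06 in LH 3 and -0.03 in LH 4, which came to 0.10, 0.06, 0.10 and 0.16 after scaling.

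Estimated depth fell between 20170000 fragments in LH 4 and 38030000 in Ctrl 2, from the steps of FPKM at 1962 annotated loci of 1 transcript, where 70.6% to 78.3% of low values came within 0.1 of a whole fragment. At such depths, 3 fragments on a transcript of 1000 bases correspond to 0.0985 to 0.186 FPKM, which covers counting error only. LH 3 and LH 4 stood apart among annotated transcripts: 20.8% and 28.5% of Ensembl transcripts were listed at 0 there, against 10.2% to 14.7% in the 14 other mice. Among the assembled transcripts LH 4 had the lowest share at 0, 5.68%, against 7.07% to 9.14% in the 15 others, but its share under 0.1 FPKM, 18.9%, lay within their 16.5% to 19.4%. All 8 listed markers of the hippocampus were present at a mean of 1 FPKM or more, with a summed level of 94.9 to 152 FPKM. The 8 striatum markers summed to 10.3 to 22.6 FPKM, the 6 choroid plexus markers to 2.57 to 93.6 FPKM, and 4 of 5 red blood cell markers (Alas2 was not listed) to 144 to 459 FPKM. For all 4 lists the lowest and the highest sums over the 16 mice were both found in the LH group, and their part in the results below was not tested.

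Many autosomal loci were carried almost wholly by 1 mouse, and that mouse was most often LH 4. At 114 of the 1538 autosomal loci (7.41%), 1 mouse held 90% or more of the FPKM summed over the 16 mice. The same was so for 9 of the 503 loci numbered after chromosome 9 (1.79%) and for 456 annotated loci (2.61%). LH 4 held 82 of the 114 loci, LH 3 held 21 and the 14 other mice between 0 and 5 each, 11 in all. Annotated loci of this kind numbered 21 to 40 per mouse, with 25 in LH 3 and 24 in LH 4. An assembled model can be listed through the reads of 1 mouse alone, while an annotated locus has its model from the annotation. The assembled and annotated counts are therefore not alike, and their contrast is not read as a result. The 82 loci of LH 4 all have 1 transcript and lie by number on all 19 autosomes, with 1 to 9 per chromosome. Their level in LH 4 had a median of 23.7 FPKM and a range of 0.318 to 127 FPKM, and 66 of them reached 10 FPKM there. At 57 of the 82 the table lists 0 in all 15 other mice, and at 3 of the 82 LH 3 was above 0. Summed, these loci made 2300 FPKM or 1.91% of all FPKM of LH 4, and the other autosomal loci made 3.55%, still above the 2.83% of LH 3. The 21 loci of LH 3 also have 1 transcript each, lie on 12 autosomes and had a median of 20.6 FPKM. At the 11 loci carried by other mice the level in that mouse reached at most 4.67 FPKM.

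Those highest in LH 4 include MSTRG.72853, MSTRG.45819 and MSTRG.36624, named here after their values were seen. MSTRG.72853 was at 127 FPKM in LH 4 and listed at 0 in the 15 other mice, and lies by number on chromosome 9 between Bud13, a splicing factor gene, and 2900052N01Rik. MSTRG.45819 was at 93.2 FPKM in LH 4 and at 0 elsewhere, and lies on chromosome 3 between Hsd3b1, which encodes an enzyme of steroid hormone synthesis, and Wars2, the mitochondrial tryptophanyl-tRNA synthetase. MSTRG.36624 was at 88.9 FPKM in LH 4 and at 0 elsewhere, next in number to Actr1a, a subunit of dynactin, on chromosome 19. With a threshold of 50% in place of 90%, LH 4 held 151 autosomal loci, LH 3 held 47 and the other mice at most 5 each. At 50% LH 4 and LH 3 held the most annotated loci as well, 136 and 93 against 45 to 83 in the others. With a threshold of 99% the autosomal counts were 60, 18 and at most 4. A level over 4 times that of the other mice was seen at 14.8% of the autosomal loci in LH 4, at 5.66% in LH 3 and at 0.975% to 1.95% in the other mice. For annotated loci LH 4 and LH 3 also had the highest shares, with 1.62% in LH 4, 0.745% in LH 3 and 0.189% to 0.418% in the others. Loci numbered after chromosome 9 showed this in LH 4 as well, at 10.1%.

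**Figure D4:**
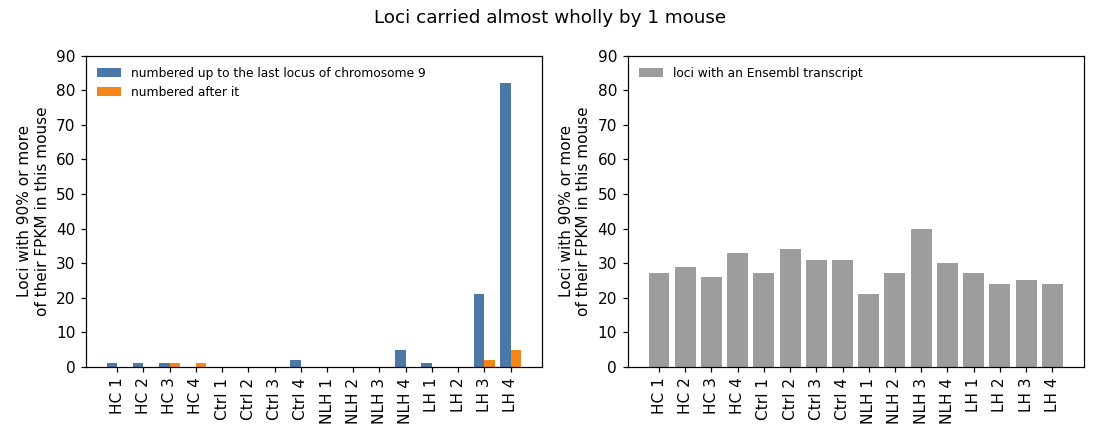
Number of loci (vertical axis) with 90% or more of their FPKM in the mouse named on the horizontal axis, for autosomal assembled loci (left, blue), assembled loci numbered after chromosome 9 (left, orange) and annotated loci (right, gray). LH 4 holds 82 autosomal loci and LH 3 holds 21, while annotated loci lie between 21 and 40 in every mouse.

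In Ctrl vs. HC, where handling, the shuttle box and the escape trials cannot be told apart, no assembled locus passed the adjusted threshold. On single transcripts, at an unadjusted p under 0.05, the methods' t-test called 286 of 3045 assembled transcripts (9.39%), beside 6.69% of all transcripts. Of these, 146 were higher in Ctrl and 140 lower, where 3.85% of all transcripts were called higher and 2.83% lower. Autosomal transcripts gave 78 higher and 90 lower calls, and those of loci numbered after chromosome 9 gave 68 and 50. After division by size factors these were 62 and 100 at autosomal loci and 58 and 75 at the others, so the balance of the latter turned, beside 2670 and 2677 of all transcripts. Among transcripts of at least 1 FPKM, 10.6% of the assembled ones were called, below the 11.3% of all. At the level of loci, limma found no assembled locus past an adjusted p of 0.05 (0% of all loci) and 38 of 2041 at an unadjusted p under 0.05 (1.86%, beside 2.57% of all loci). The 4 with the smallest p among loci of at least 1 FPKM were MSTRG.9858, MSTRG.78876, MSTRG.36029 and MSTRG.8148. MSTRG.9858, on chromosome 11 between Sec61g, a subunit of the protein translocation channel, and the growth factor receptor gene Egfr, was at 1.21, 0.277, 0.457 and 0.851 FPKM in HC 1 to HC 4 and at 1.51, 2.14, 2.83 and 2.07 FPKM in Ctrl 1 to Ctrl 4. Every Ctrl mouse was above every HC mouse at this locus (log2 difference 1.62 ± 0.43 SE, limma adjusted p = 1). MSTRG.78876, numbered after chromosome 9, had 5.34 to 5.94 FPKM in HC and 6.48 to 7.72 FPKM in Ctrl, without overlap. MSTRG.36029, between the transcription factor genes Rfx3 and Glis3 on chromosome 19, had 3.52 to 3.97 FPKM in HC and 4.39 to 5.37 FPKM in Ctrl, without overlap.

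In NLH vs. Ctrl the calls at autosomal loci lay mostly on the lower side and those at loci numbered after chromosome 9 mostly on the higher side. Here the methods' t-test called 290 of 3046 assembled transcripts (9.52%), beside 7.21% of all transcripts. Of these, 127 were higher in NLH and 163 lower, while 4.1% of all transcripts were called higher and 3.11% lower. Autosomal transcripts gave 51 higher and 135 lower calls, and transcripts of loci numbered after chromosome 9 gave 76 higher and 28 lower. After division by size factors these counts were 37 and 156 for autosomal loci and 62 and 45 for the others, while those of all transcripts went from 3248 higher and 2459 lower to 2818 higher and 3208 lower. Among transcripts of at least 1 FPKM, 11.5% of the assembled ones were called, below the 12.7% of all. By limma no assembled locus passed an adjusted p of 0.05 (0.00513% of all loci did) and 94 had an unadjusted p under 0.05 (4.61%, beside 6.08% of all loci). The loci with the smallest p include MSTRG.15328, on chromosome 12 between Etv1, a transcription factor gene, and Arl4a. It was at 1.32, 1.86, 1.41 and 2.39 FPKM in the Ctrl mice and at 0.414, 0.500, 1.02 and 0.588 FPKM in the NLH mice, without overlap. Its means in HC and LH were 1.60 and 0.725 FPKM. Its mean without the Ctrl mice was under the 1 FPKM needed to be named, so no test is given. MSTRG.77815 had 9.32 to 14.5 FPKM in Ctrl and 15.7 to 20.4 FPKM in NLH (limma adjusted p = 0.385), and MSTRG.77852 had 24.2 to 28.4 FPKM in Ctrl and 30.1 to 38.7 FPKM in NLH (limma adjusted p = 0.444). Both are numbered after chromosome 9, and neither had overlapping values. MSTRG.45667, a locus of 4 transcripts next in number to Otud7b, a deubiquitinase gene on chromosome 3, was at 10.5 to 12.9 FPKM in Ctrl and at 11.1, 1.61, 0.428 and 3.84 FPKM in NLH 1 to NLH 4. Only NLH 1 lay within the Ctrl range there (log2 difference -2.26 ± 0.60 SE, limma adjusted p = 0.469).

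In LH vs. Ctrl the same opposite sides were seen, with the same Ctrl mice as in the comparison before. Among 3139 assembled transcripts the methods' t-test called 338 (10.8%), beside 7.7% of all transcripts. Of these, 125 were higher in LH and 213 lower, where 2.89% of all transcripts were called higher and 4.81% lower. Autosomal transcripts gave 44 higher and 178 lower calls, and those of loci numbered after chromosome 9 gave 81 higher and 35 lower. After division by size factors the counts were 25 and 105 at autosomal loci and 80 and 43 at the others, beside 2030 and 4502 of all transcripts. The share called at autosomal loci was then 6.49%, below the 8.28% of all transcripts, where it had been 11.1% before scaling. Without LH 4 the methods' t-test called 589 assembled transcripts (19.3%, beside 10.1% of all transcripts), 60 higher and 333 lower at autosomal loci and 160 higher and 36 lower at the others. Over all transcripts there were 2282 higher and 3798 lower calls with LH 4, and 4504 higher and 3476 lower without it.

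By limma no assembled locus passed an adjusted p of 0.05 in LH vs. Ctrl (0% of all loci). At an unadjusted p under 0.05 there were 340 (16.7%, beside 13.4% of all loci), with 78 higher and 167 lower among autosomal loci and 90 higher and 5 lower among loci numbered after chromosome 9. Over all loci 1705 were higher and 915 lower, so most calls were on the higher side there as well. After division by size factors the share was 14.9%, beside 16.9% of all loci, so the excess over all loci depended on the scale. Among assembled loci of 1 to 10 FPKM the unscaled share was 18.2%, and among those of 10 FPKM or more 24.4%, beside 14.98% and 20.04% of all loci of these levels. Without LH 4, which leaves 3 LH mice, 543 assembled loci had an unadjusted p under 0.05 (26.6%, beside 20.1% of all loci), and 95 passed the adjusted p (4.65%, beside 3.26% of all loci). These 95 were 70 autosomal loci, 4 higher and 66 lower, and 25 loci numbered after chromosome 9, 24 higher and 1 lower, where all loci gave 531 higher and 105 lower. Of these 95, 60 autosomal loci and 18 of the others were also among the 340, and all of these had the same direction. Without LH 2, 9 assembled loci passed the adjusted p (0.441%, near the 0.380% of all loci), 7 of them higher.

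The 4 assembled loci with the smallest p in LH vs. Ctrl did not overlap between the groups. As they were chosen by this p, their separation follows in part from the choice. MSTRG.76642, numbered after chromosome 9, was at 4.54, 5.21, 5.43 and 5.32 FPKM in the Ctrl mice and at 7.61, 6.75, 7.43 and 7.28 FPKM in the LH mice (log2 difference 0.50 ± 0.10 SE, limma adjusted p = 0.0826). NLH values of this locus, 5.52 to 7.38 FPKM, lay above all Ctrl values and reached into the LH range. MSTRG.53334, on chromosome 5 next in number to 1500035N22Rik, was at 2.92, 2.27, 2.46 and 2.69 FPKM in the Ctrl mice and at 1.70, 1.68, 1.45 and 1.94 FPKM in the LH mice (log2 difference -0.58 ± 0.12 SE, limma adjusted p = 0.0826). At MSTRG.8148, on chromosome 10 between the zinc finger genes Zfp781 and Zfp873, levels were 1.59 to 2.09 FPKM in Ctrl, 2.82 to 5.02 FPKM in LH and 2.07 to 3.58 FPKM in HC. Its log2 difference was 1.02 ± 0.21 SE in LH vs. Ctrl (limma adjusted p = 0.0888), and in Ctrl vs. HC it was -0.64 ± 0.21 SE (limma adjusted p = 1). MSTRG.78027, numbered after chromosome 9, was at 0.658 to 1.70 FPKM in Ctrl and at 3.49, 2.16, 4.02 and 10.5 FPKM in the LH mice (log2 difference 1.80 ± 0.38 SE, limma adjusted p = 0.0888). Without LH 4 all 4 loci passed the adjusted p, with limma adjusted p = 0.0286 for MSTRG.76642, 0.0197 for MSTRG.53334, 0.0403 for MSTRG.8148 and 0.0303 for MSTRG.78027. Without LH 2 MSTRG.76642 and MSTRG.78027 passed (limma adjusted p = 0.0433 and 0.0296), and MSTRG.53334 and MSTRG.8148 did not (limma adjusted p = 0.0594 and 0.0704).

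In LH vs. NLH, which compares mice given the same inescapable shocks, the methods' t-test called fewer assembled transcripts than in the other comparisons. By limma at an unadjusted p, fewer loci were called only beside LH vs. Ctrl. At 134 of 3141 (4.27%) the methods' t-test made a call, beside 4.48% of all transcripts, a share near the background. Of these, 57 were higher in LH and 77 lower, while 1.27% of all transcripts were called higher and 3.21% lower. This count was 255 without LH 4 (8.35%, beside 4.75% of all transcripts), 203 without NLH 1 (6.46%, beside 5.47%) and 84 without NLH 4 (2.68%, beside 3.31%). By limma no assembled locus passed an adjusted p of 0.05 (0.00513% of all loci did), and 190 had an unadjusted p under 0.05 (9.31%, beside 7.42% of all loci). Of these, 82 autosomal loci were higher in LH and 58 lower, and of loci numbered after chromosome 9, 44 were higher and 6 lower, beside 664 higher and 782 lower over all loci. The autosomal calls of the methods' t-test lay on the other side, with 24 higher and 54 lower. After division by size factors 8.97% of the assembled loci were past the unadjusted p, beside 9.83% of all loci. Without LH 4 the unadjusted count was 340 (16.7%, beside 10.6% of all loci), and the direction at autosomal loci turned to 62 higher and 184 lower, while loci numbered after chromosome 9 gave 84 higher and 10 lower and all loci 1352 higher and 711 lower. The adjusted p was passed by 5 assembled loci without NLH 1 (27 of all loci) and by 2 without LH 2 (9 of all loci).

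MSTRG.75844, a locus of 2 transcripts near the end of chromosome 9, next in number to 2010315B03Rik, had the smallest p in LH vs. NLH. It was at 1.78, 2.57, 2.75 and 1.99 FPKM in the NLH mice and at 1.15, 0.855, 1.202 and 0.550 FPKM in the LH mice (log2 difference -1.22 ± 0.22 SE, limma adjusted p = 0.181). All 4 LH mice lay below all 12 other mice. Its second transcript, MSTRG.75844.2, was at 0.785, 1.56, 2.07 and 1.06 FPKM in NLH, and in LH at 0.319 FPKM in LH 3 and at most 0.00273 FPKM in the others. In a fit of single transcripts it was the only assembled transcript past the adjusted p in this comparison (limma adjusted p = 0.0236), beside 33 of all transcripts. MSTRG.76969, numbered after chromosome 9, was at 12.2, 6.45, 6.92 and 5.61 FPKM in the NLH mice and at 13.8, 13.3, 13.6 and 13.2 FPKM in the LH mice. The LH values lay close together and above those of all other mice, with NLH 1 and HC 1 (10.6 FPKM) the nearest, but overlapped them after division by size factors. Its log2 difference was 0.85 ± 0.18 SE against NLH (limma adjusted p = 0.272) and 0.56 ± 0.18 SE against Ctrl (limma adjusted p = 0.190), and without NLH 1 the former was 1.08 (limma adjusted p = 0.00202). The transcript of this locus was also the only assembled one past a threshold of 0.05 when p-values from the methods' t-test were adjusted by Benjamini-Hochberg, in LH vs. Ctrl. Of all transcripts, 7 passed there. MSTRG.6232, on chromosome 10 next in number to Gm4922, was listed at 0 in NLH 1, NLH 3 and NLH 4, at 0.514 FPKM in NLH 2, and at 2.55, 0.813, 3.01 and 7.21 FPKM in the LH mice. MSTRG.78655, numbered after chromosome 9, was at 0.211 to 0.524 FPKM in NLH and at 2.98, 2.74, 1.75 and 0.695 FPKM in the LH mice, where LH 4 came closest to NLH. Both MSTRG.6232 and MSTRG.78655 reached the mean of 1 FPKM needed to be named only through the LH mice, with means of 0.246 and 0.725 FPKM in HC and 0.265 and 0.880 FPKM in Ctrl, so their values are given without a test.

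**Figure D5:**
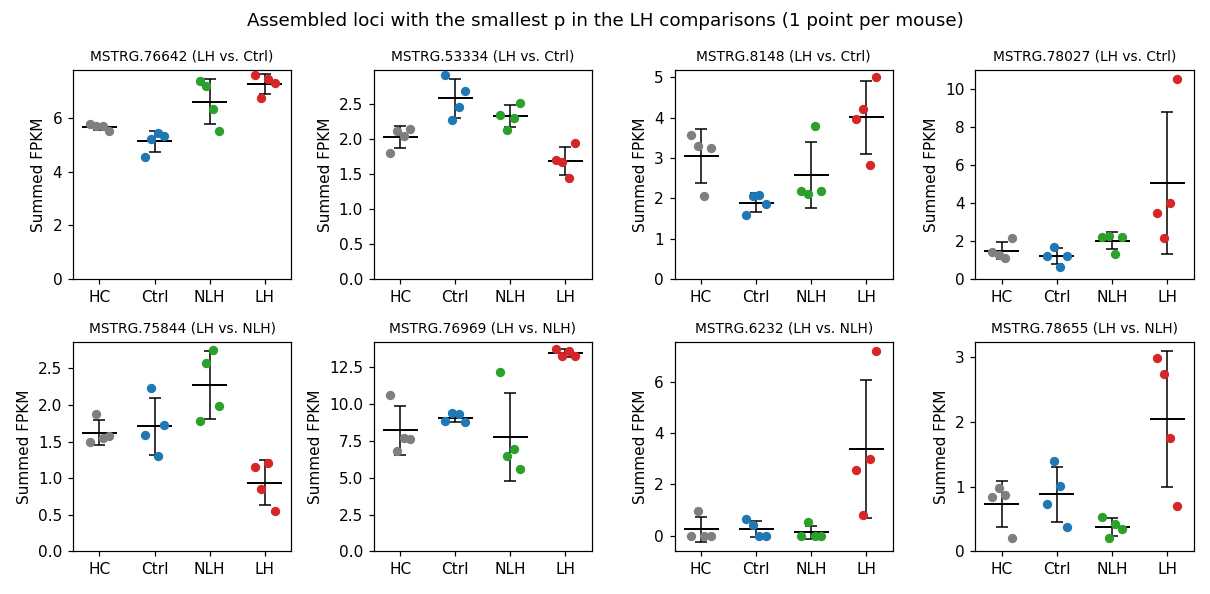
Summed FPKM of the 4 assembled loci with the smallest limma p in LH vs. Ctrl (top row) and in LH vs. NLH (bottom row), with 1 point per mouse in the order of its number, a line at the group mean and bars of 1 SD (n = 4). The LH points lie outside the range of the group that LH is compared with in each title, above it in 6 loci and below it at MSTRG.53334 and MSTRG.75844. As the loci were chosen by this p, their separation follows in part from the choice. MSTRG.6232 and MSTRG.78655 reached the mean needed to be named only through the LH mice.

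Loci at which all 4 mice of a group lay outside the range of the 12 other mice were few, and were most frequent in LH. For LH there were 9 such loci among the 503 numbered after chromosome 9, all higher (1.79%), and 10 among the autosomal loci, 3 higher and 7 lower. One of these 3, MSTRG.9572, was under 0.1 FPKM in 3 of the 4 LH mice and at 0.264 FPKM in the other, which is too low for its order to be read. Over all loci, 0.333% were higher and 0.195% lower in LH without overlap. After division by size factors, 1 of the 9 was without overlap (MSTRG.76607), so the other 8 depended on the scale. For HC there were 2 higher and 5 lower assembled loci, beside 0.0616% and 0.385% of all loci. For Ctrl there was 1 in each direction, beside 0.0205% and 0.0975%, and for NLH 1 higher and 0 lower, beside 0.0718% and 0.0154%. MSTRG.76607 was at 2.37, 2.21, 2.00 and 2.05 FPKM in the LH mice and at 1.09 to 1.67 FPKM in the 12 others. MSTRG.78141, another of the 9, was at 7.61, 6.33, 7.33 and 6.50 FPKM in the LH mice and at 4.45 to 5.85 FPKM in the others. Of the autosomal loci, MSTRG.48791 on chromosome 4 was at 7.69, 8.71, 8.94 and 16.5 FPKM in the LH mice and at 2.34 to 7.16 FPKM in the others. MSTRG.69535 on chromosome 8 was lower, at 2.02, 1.73, 2.15 and 1.95 FPKM in the LH mice against 2.34 to 2.79 FPKM. The last 2 were also without overlap after scaling. These loci were listed after their values had been seen.

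Transcripts of the same locus could be called in opposite directions. Of the 491 assembled loci with 2 or more transcripts, 113 had a transcript called by the methods' t-test in Ctrl vs. HC, 123 in NLH vs. Ctrl, 137 in LH vs. Ctrl, with 81 in LH vs. NLH. These counts are given without those of annotated loci, so they are not read as a trait of the assembled loci. Most of the loci with a call had a single one, which has 1 direction. Of those with 2 or more calls, both directions were found at 14 of 23 loci in Ctrl vs. HC (60.9%, beside 60.2% of such annotated loci) and at 13 of 25 in NLH vs. Ctrl (52%, beside 63.3%). The counts were 9 of 25 in LH vs. Ctrl (36%, beside 49.6%) and 2 of 8 in LH vs. NLH (25%, beside 49.7%), and the differences from annotated loci were not tested. At MSTRG.77833, 5 of the 21 transcripts were called in Ctrl vs. HC, 3 in NLH vs. Ctrl, 4 in LH vs. Ctrl, with 1 in LH vs. NLH. These went both ways in each of the first 3 comparisons, with MSTRG.77833.13 and MSTRG.77833.6 higher and MSTRG.77833.20 and MSTRG.77833.15 lower in LH vs. Ctrl. At MSTRG.76745 there was 1 call, in Ctrl vs. HC. In bulk tissue a locus that differs through its level per cell and one that differs through the number of cells that express it cannot be told apart.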

How the data were processed

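RNA-seq libraries of 16 hippocampus samples, 4 each of HC, Ctrl, NLH and LH mice, were analysed from the deposited FPKM values per transcript. The authors aligned reads to mm10, assembled and merged transcripts with StringTie 1.2.3 and quantified them with Cufflinks. The methods name HISAT2 as the aligner and the submitters' processing notes STAR 2.42a. The kit was for total RNA, and whether it kept strand is not given in the sources used here. FPKM are not counts and were used as deposited, with values under 1e-100 set to 0. Overlapping models without strand cannot be told apart.

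The assembled loci and all lists were chosen with earlier results of these data known. Single transcripts were compared by the methods' t-test on FPKM (equal variances, two-sided, unadjusted p under 0.05). Loci were compared with limma 3.58.1 (R 4.3.3) on log2(summed FPKM + 0.1), with trend and robust moderation, 4 group means over all 16 mice and Benjamini-Hochberg adjustment over 19493 loci. Fold changes on this scale understate those of low loci. Loci were named by rule: the 10 with the highest mean, the 3 (with a tie, 4) with the most transcripts, the 4 with the smallest limma p of at least 1 FPKM in each comparison, and others only where marked as named after their values were seen. At loci named by p, a lack of overlap in that comparison follows in part from the choice. Depth was estimated on an assumed fragment length of 200 bases and loci over 2000 bases. Both tests were tested on simulated data. Positions came from GENCODE vM21. Alternatives were another added constant (0.01 or 1), unequal variances, log2 values, single transcripts, a mean of at least 1 FPKM, size factors, adjustment, complete separation, 8 mice only, the mouse number as a block and each mouse left out. Python 3.11.15 with numpy 2.4.6, pandas 2.3.3, scipy 1.17.1 and matplotlib 3.10.9 was used, and the R package data.table (version 1.17.8). With 1 library per mouse, p-values measure the spread between mice. The mice were group-housed, and which of them shared a cage is not given in the sources used here, so cages were not modeled.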

Additional observations from a re-analysis of the deposited data

Results flagged for a closer look

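Within groups of 4 mice, single mice stood apart from the 3 others by Dixon's test in 11 of 148 group values examined. Where the 3 others are equal, as with counts of loci carried by 1 mouse and MSTRG.6232 below, the test always sets the single mouse apart. The 11 are therefore not set against a rate of chance. LH 4 had the lowest share of assembled transcripts listed at 0 in its group, 5.68%, against 8.72% to 9.11% in the other LH mice, while its share under 0.1 FPKM, 18.9%, lay between theirs of 18.2% and 19.4%. The number of autosomal loci carried by 1 mouse was 0 in HC 4 against 1 in each other HC mouse, 2 in Ctrl 4 against 0 in the other Ctrl mice, and 5 in NLH 4 against 0 in the other NLH mice. The 82 loci of LH 4 did not stand apart by this test because LH 3 held 21. Among named loci, MSTRG.78801 was lowest in Ctrl 1 at 232 FPKM, MSTRG.77875 lowest in HC 4 at 163 FPKM and MSTRG.78027 lowest in NLH 3 at 1.35 FPKM. MSTRG.8148 was highest in NLH 3 at 3.81 FPKM and MSTRG.77815 highest in Ctrl 2 at 14.5 FPKM. MSTRG.6232 was above 0 in 1 HC mouse, HC 2 at 0.982 FPKM, and in 1 NLH mouse, NLH 2 at 0.514 FPKM.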

How the results depend on the processing

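The choice of test set how many assembled transcripts were called. With only transcripts of at least 1 FPKM there were 174 calls in Ctrl vs. HC, 189 in NLH vs. Ctrl and 67 in LH vs. NLH, beside 2554, 2861 and 1046 of all transcripts, and the assembled share was then below that of all 3 times (10.6%, 11.5% and 3.94%, beside 11.3%, 12.7% and 4.63%), but not in LH vs. Ctrl, with 235 calls (13.8%, beside 12.1%). With Benjamini-Hochberg adjustment there was 1 call in LH vs. Ctrl (beside 7 of all transcripts) and 0 in each of the other comparisons. There, all transcripts gave 1 call in Ctrl vs. HC, 3 in NLH vs. Ctrl, with 0 in LH vs. NLH when adjusted this way. Limma on transcripts at an unadjusted p gave 77 in Ctrl vs. HC, 147 in NLH vs. Ctrl and 269 in LH vs. NLH, again below all transcripts (2.44%, 4.66% and 8.53%, beside 3.45%, 5.12% and 8.72%), and 392 in LH vs. Ctrl, above all (12.4%, beside 10.7%), so the higher assembled share by the methods' t-test in Ctrl vs. HC and in NLH vs. Ctrl depended on the test. Leaving out 1 mouse at a time gave 226 to 337 calls in Ctrl vs. HC, 223 to 399 in NLH vs. Ctrl, 229 to 589 in LH vs. Ctrl, with 84 to 255 in LH vs. NLH. In the same order the assembled shares were 7.45% to 11.1%, 7.34% to 13.2%, 7.30% to 19.3% and 2.68% to 8.35%. The shares of all transcripts were 5.50% to 6.42%, 5.63% to 8.50%, 5.79% to 10.1% and 3.19% to 5.47%. Without LH 3 and LH 4 the calls were 808 in LH vs. Ctrl (26.7%, beside 13.7% of all transcripts), with 307 in LH vs. NLH (10.1%, beside 6.41%).

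Assembled loci past the adjusted limma threshold went from 0 to 1 in Ctrl vs. HC (MSTRG.76577) and 4 in NLH vs. Ctrl (MSTRG.37783, MSTRG.53402, MSTRG.55786 and MSTRG.78115) with only the 8 mice compared, beside 4 and 7 of all loci. In LH vs. Ctrl they went to 2 with size factors (MSTRG.55999 and MSTRG.78468, beside 61 of all loci), to 281 without LH 3 and LH 4 (13.8%, beside 10.1% of all loci) and to 1 with single transcripts (MSTRG.77797.2, beside 37 of all transcripts). In LH vs. NLH they went to 1 without LH 3 and LH 4 (MSTRG.55786, beside 7 of all loci) and to 1 with single transcripts (beside 33 of all transcripts). These loci are named after their values were seen. Leaving out 1 mouse at a time gave 0 each time in Ctrl vs. HC and in NLH vs. Ctrl, 0 to 95 in LH vs. Ctrl, with 0 to 5 in LH vs. NLH. The cause of these changes was not tested.

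Mice with the same number were not found to pair: the median r of their deviations over 24 pairs was -0.0236, with a range of -0.168 to 0.133. With the mouse number as a block the methods' t-test called 228 assembled transcripts in Ctrl vs. HC, 246 in NLH vs. Ctrl, 207 in LH vs. Ctrl, with 162 in LH vs. NLH (7.49%, 8.08%, 6.59% and 5.16%, beside 5.09%, 5.87%, 5.30% and 3.68% of all transcripts), and limma placed 0 past its threshold in all 4, so the block moved only the count of LH vs. Ctrl by over 1.5 times. Of the loci named by p, none changed direction under any alternative run in the comparison that named it. As that comparison chose them, this follows in part from the choice. Depth limits the lowest loci, since 42 autosomal loci and 2 numbered after chromosome 9 averaged under 0.1 FPKM.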

Other observations

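Some assembled loci were listed at 0 in all mice of some groups but not in others, and these are given as values, named after they were seen. MSTRG.76577, numbered after chromosome 9, was at 0 in all 4 HC mice and at 0.956, 1.92, 0.745 and 0.685 FPKM in Ctrl 1 to Ctrl 4, with NLH mice at 0 to 1.65 FPKM and LH mice at 0 except for 8.26 FPKM in LH 4. MSTRG.55786 was at 0 in all 4 Ctrl mice and at 1.19, 0.914, 0.963 and 1.10 FPKM in NLH 1 to NLH 4. HC mice were at 0 except for 0.483 FPKM in HC 3. In the LH group it was at 0 in LH 1 and LH 2 and at 4.66 and 3.97 FPKM in LH 3 and LH 4. MSTRG.78115, numbered after chromosome 9, was at 0 in all 4 NLH mice and at 0.399 to 1.17 FPKM in Ctrl and 0.456 to 2.03 FPKM in HC. LH 2 and LH 3 were also at 0 there, with 2.37 FPKM in LH 1 and 5.84 FPKM in LH 4. MSTRG.76214, numbered after chromosome 9, was at 11.4, 8.63 and 5.58 FPKM in LH 1, LH 3 and LH 4, at 2.48 FPKM in Ctrl 2 and at 0 in the other 12 mice, LH 2 among them.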
